A study of Mus musculus with 59 samples.

Results

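Keratins are the intermediate filament proteins of epithelial cells, and they were examined here as a gene family: every probe whose accession was paired with a mouse gene symbol made of Krt and a number, keratin-associated proteins left out. This gave 49 keratins measured by 59 probes, among 37163 genes or transcripts and 55681 probes on the array. The arrays profiled 3 tissues, lung, liver and forestomach, from male Muta™Mouse, a transgenic strain carrying a reporter for mutations, at about 16 weeks of age. For 28 days the mice were gavaged daily with benzo(b)fluoranthene (BbF), a polycyclic aromatic hydrocarbon, dissolved in olive oil. The vehicle group received olive oil alone, and the daily dose was 25 mg/kg-bw in the low, 50 in the medium and 100 in the high group. Tissues were taken 72 h after the final dose from 5 mice per group, and low-dose lung has 4 arrays, which makes 19 lung, 20 liver and 20 forestomach arrays. The titles and the treatment protocol give BbF as the compound, but benz(a)anthracene stands in another label and in the series' design. The labels alone do not resolve this disagreement. The doses are those that the authors' paper lists for BbF and differ from those it lists for benz(a)anthracene, so BbF is the name used here. Mice 1 to 5 were vehicle, 6 to 10 low, 11 to 15 medium and 16 to 20 high dose, a number being the same animal in each tissue. RNA came from random sections of each organ.

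Keratin filaments are built from pairs of an acidic type I and a basic type II chain, and each kind of epithelium uses its own pairs. Simple, single-layered epithelia such as hepatocytes, alveolar cells and gastric glands rely on Krt8 and Krt18, with Krt7, Krt19 or Krt20 added in particular cell types. Stratified squamous epithelium, which lines the mouse forestomach, makes Krt5, Krt14 and Krt15 in its basal cells and changes to Krt4 and Krt13, or to Krt1 and Krt10 where it cornifies, as the cells move up, and wounding or rapid growth brings Krt16 and Krt17.

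Each value below is a log2 ratio of tissue RNA (Cy5) to a universal mouse reference RNA (Cy3) hybridized to the same array, normalized within the array by loess. A value of 1 means that the tissue signal was 2-fold that of the reference, so values of different keratins are not levels that can be ranked against each other. A keratin is represented by its brightest probe. It was called different in a comparison when any of its probes had an FDR-adjusted p of 0.05 or less by limma's moderated test, adjusted over all 55681 probes, and a change of 1.5-fold or more. The p-values measure the spread between mice. Since whole tissue pieces were profiled, fewer cells of a type and less RNA per cell cannot be told apart.

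Before the results, the arrays that stood apart are given. On 1 liver slide (mice 5, 6, 10, 11, 15, 18, 19 and 20) 10.7 to 12.9% of probes were well above background, against 37.0 to 46.1% on the other liver arrays, 44.8 to 52.7% in lung without mouse 13 and 39.6 to 52.0% in forestomach. The lung array of medium-dose mouse 13 had 68.8%, and 34 keratins above background where the other lungs had 16 to 25. The lung array of low-dose mouse 6 carried squamous keratins, as described below. The forestomach arrays were divided in glandular stomach genes, with a mean of 5.19 to 6.51 on 12 arrays and 0.23 to 3.97 on the other 8. The forestomach arrays of mice 5 and 12 held striated muscle genes at a mean of 3.46 and 4.11, against 0.458 to 1.08 on the other 18, and mouse 12 also had the highest mean of hepatocyte genes in forestomach (4.84, others 0.318 to 3.56). The tissue labels were borne by their markers in vehicle mice: all 5 alveolar type II genes were called higher in lung than in forestomach, all 5 hepatocyte genes higher in liver than in lung, and 27 of 28 squamous genes other than keratins higher in forestomach than in lung. Vehicle forestomach also held markers of other tissues: 8 of 10 glandular stomach genes and all 5 hepatocyte genes were called higher there than in lung.

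Promoters are shown for 5 keratins on which the results turn: the basal pair Krt5 and Krt14, the mucosal Krt13, and the simple pair Krt8 and Krt18, whose values went up and down together over the forestomach arrays. They come from RefSeq's GRCm38.p6 annotation and span 300 bases, most of them before the annotated start. Capitals mark TATAAA (the core of a TATA box), GCGTG (the core of the dioxin response element, bound by the aryl hydrocarbon receptor that polycyclic aromatic hydrocarbons activate) or TGANTCA (an AP-1 site) on either strand. The positions are chr15:101712856-101713155 (minus strand) for Krt5, chr11:100205981-100206280 (minus) for Krt14, chr11:100121517-100121816 (minus, the first of 2 starts) for Krt13, chr15:102004293-102004592 (minus) for Krt8 and chr15:102027966-102028265 (plus) for Krt18.
Krt5: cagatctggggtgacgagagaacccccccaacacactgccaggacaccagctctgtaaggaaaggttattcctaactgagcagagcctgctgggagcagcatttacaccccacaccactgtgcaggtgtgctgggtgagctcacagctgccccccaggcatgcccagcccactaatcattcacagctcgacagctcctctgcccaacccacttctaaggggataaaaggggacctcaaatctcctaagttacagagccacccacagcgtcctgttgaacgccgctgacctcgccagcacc
Krt14: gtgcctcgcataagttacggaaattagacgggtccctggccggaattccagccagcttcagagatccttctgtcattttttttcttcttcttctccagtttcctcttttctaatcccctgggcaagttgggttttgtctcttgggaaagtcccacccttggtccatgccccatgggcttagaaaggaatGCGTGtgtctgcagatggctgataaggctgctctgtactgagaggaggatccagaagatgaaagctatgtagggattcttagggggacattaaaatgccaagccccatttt
Krt13: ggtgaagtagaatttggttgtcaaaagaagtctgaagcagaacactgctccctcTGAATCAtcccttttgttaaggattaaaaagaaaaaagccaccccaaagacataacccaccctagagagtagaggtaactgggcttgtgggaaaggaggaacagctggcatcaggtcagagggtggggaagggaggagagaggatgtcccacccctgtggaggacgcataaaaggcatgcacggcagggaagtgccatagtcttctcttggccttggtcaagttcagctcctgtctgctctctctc
Krt8: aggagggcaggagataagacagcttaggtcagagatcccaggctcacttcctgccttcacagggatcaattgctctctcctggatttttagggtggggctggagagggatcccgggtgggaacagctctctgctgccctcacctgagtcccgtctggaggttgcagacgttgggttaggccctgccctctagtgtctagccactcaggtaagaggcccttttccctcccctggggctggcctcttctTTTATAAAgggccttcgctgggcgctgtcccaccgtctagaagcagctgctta
Krt18: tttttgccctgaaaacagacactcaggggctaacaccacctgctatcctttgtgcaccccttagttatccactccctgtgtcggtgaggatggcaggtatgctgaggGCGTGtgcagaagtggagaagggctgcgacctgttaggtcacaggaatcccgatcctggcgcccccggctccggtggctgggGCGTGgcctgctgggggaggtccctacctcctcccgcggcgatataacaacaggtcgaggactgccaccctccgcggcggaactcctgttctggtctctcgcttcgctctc
These windows held no match in Krt5, 1 GCGTG in Krt14, 1 TGANTCA in Krt13, 2 overlapping TATAAA matches on opposite strands in Krt8 and 2 GCGTG in Krt18. Promoters in the table covered 35 of the 49 keratins (36 windows). TATAAA occurred in 18 of the 36 (50%), against 13.6% of all 32851 promoters of that length. GCGTG occurred in 5 of the 36 (13.9%, in Krt10, Krt14, Krt18, Krt23 and Krt25), against 32.4% of all promoters, and TGANTCA in 2 (5.56%, both of Krt13), against 7.81%. A match is a description of the letters and not a site shown to be bound. No promoter of Krt80, the keratin that rose with dose, was in the table.

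Forestomach carried by far the most keratins. Probes of 28 keratins were well above background on every forestomach array, against 14 on every lung array and 2, Krt8 and Krt18, on every liver array. The liver count rested on the low slide, since 12 keratins were above background on all 12 of the other liver arrays: Krt2, Krt8, Krt10, Krt16, Krt18, Krt19, Krt23, Krt31, Krt73, Krt79, Krt80 and Krt222. The 14 of lung were Krt7, Krt8, Krt10, Krt16, Krt18, Krt19, Krt23, Krt31, Krt42, Krt73, Krt79, Krt80, Krt81 and Krt222. Conversely, 10 keratins had no probe above background on any forestomach array, 10 on any lung array and 20 on any liver array, and these 20 were also the ones on none of the 12 liver arrays outside the low slide. The lung count was 17 without mouse 13, the only lung array on which Krt24, Krt26, Krt27, Krt36, Krt39, Krt40 and Krt87 were above background. The inner root sheath keratins Krt25, Krt71 and Krt75 and the hair keratin Krt34 were above background on none of the 59 arrays, and their log2 ratios near 0 are no levels.

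Comparing the tissues of vehicle mice gives the baseline. Between forestomach and lung, 24 keratins (49%) were called, 22 higher and 2 lower in forestomach, against 24.2% of all genes. Between forestomach and liver 26 (53.1%) were called, 25 of them higher in forestomach, against 25.5% of all genes. Between lung and liver 11 (22.4%) were called, 8 higher and 3 lower in lung, against 30.5% of all genes. The median difference of the 49 keratins was 0.26 for forestomach minus lung, 0.74 for forestomach minus liver and -0.10 for lung minus liver, with medians over all probes of 0.01, -0.01 and -0.02.

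**Figure D1:**
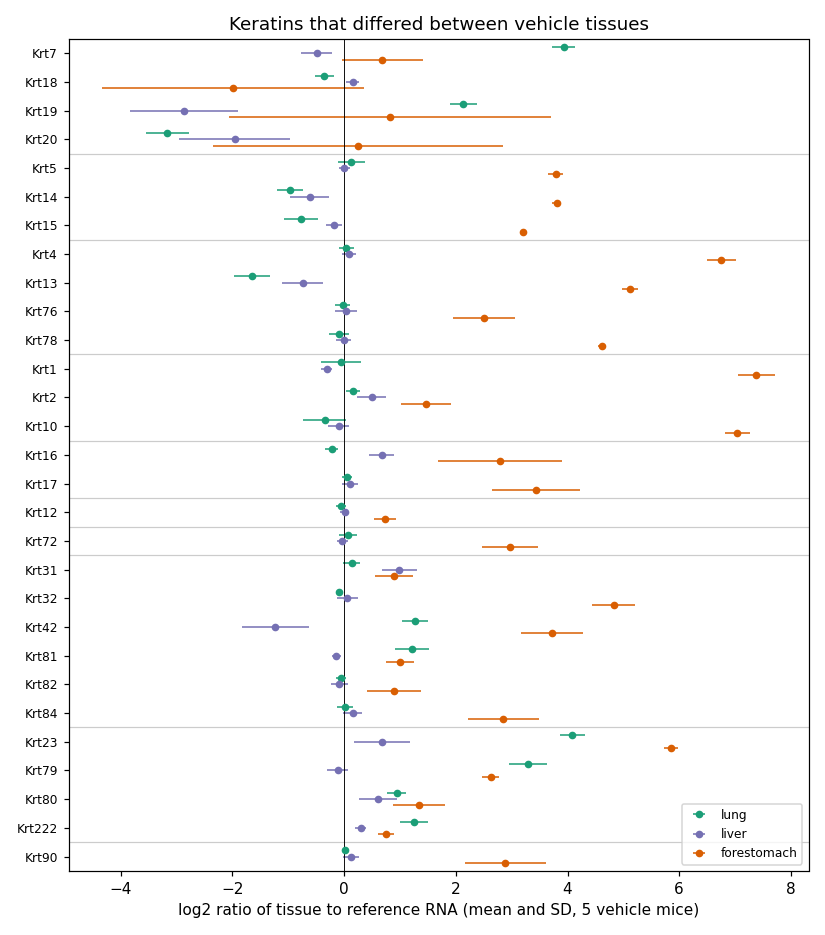
Log2 ratio of tissue to reference RNA (horizontal axis) for the 29 keratins called between any tissues of vehicle mice, grouped by role. Points are means of 5 mice with bars of 1 SD, 1 colour per tissue. Basal, mucosal and wound keratins lie to the right in forestomach (Krt4 at 6.75), Krt7 lies to the right in lung (3.93), and the forestomach bars of Krt18, Krt19 and Krt20 are wide.

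All 3 basal keratins were called higher in forestomach than in both other tissues. Krt5, the type II chain of basal cells, was 3.84, 3.88, 3.61, 3.93 and 3.69 in forestomach of vehicle mice 1 to 5, and 0.21, 0.51, -0.03, 0.05 and -0.10 in lung. No lung value came near a forestomach value, and the difference was 3.66 ± 0.11 (SE, limma FDR-adjusted p = 2.74e-13). Its partner Krt14 was 3.81 ± 0.08 (SD, n = 5) in forestomach and -0.97 ± 0.23 in lung, a difference of 4.78 ± 0.15 (limma FDR-adjusted p = 4.96e-13). Krt15, found in basal cells and follicle stem cells, was 3.21 ± 0.05 in forestomach, -0.77 ± 0.31 in lung and -0.18 ± 0.14 in liver. In liver Krt5 was above background on none of the 5 vehicle arrays, and its Cy5 signal in forestomach was at least 776-fold higher. That bound leaves out the Cy3 signal of the reference, whose log2 mean also differed (6.00 in liver, 11.84 in forestomach). As a log2 ratio to the reference, the difference between forestomach and liver was 3.79.

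All 4 mucosal suprabasal keratins were called higher in forestomach than in lung and in liver. Krt4 was 6.50, 6.93, 6.97, 6.43 and 6.93 in the 5 vehicle forestomachs and between -0.10 and 0.21 in the vehicle lungs, where none of 5 arrays was above background. The difference was 6.71 ± 0.12 (SE, limma FDR-adjusted p = 4.63e-16), and on the Cy5 channel alone forestomach was at least 172-fold higher. Krt13, the type I partner of Krt4, was 5.12 ± 0.15 (SD, n = 5) in forestomach, -1.65 ± 0.33 in lung and -0.74 ± 0.37 in liver. Krt78 stood at 4.62 ± 0.07 in forestomach, at least 366-fold above lung and 403-fold above liver on the Cy5 channel. Krt76, a keratin of palate and tongue, was 2.51 ± 0.55 in forestomach and at least 4.27-fold above lung, the smallest difference of the 4 (2.54 ± 0.20 SE).

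Cornifying keratins were part of the forestomach pattern as well, with gaps wider still for Krt1 and Krt10. Of 5 epidermal suprabasal keratins 3 were called higher than in lung and than in liver: Krt1 by 7.44 ± 0.17 (SE) over lung, its partner Krt10 by 7.39 ± 0.16, and Krt2 by 1.30 ± 0.18. Krt1 was above background on 1 of 5 vehicle lungs and on no vehicle liver, over which its Cy5 signal in forestomach was at least 1880-fold higher. Krt9 and Krt77, keratins of footpad and sweat gland skin, were not called. A second probe of Krt10 gave 4.85 for the same comparison, so the size of that difference depends on the probe. Both wound keratins were higher in forestomach than in lung, Krt16 by 3.01 ± 0.37 and Krt17 by 3.38 ± 0.27, although their values varied among vehicle mice from 0.89 to 3.73 and from 2.10 to 3.98. Krt17 was above background on no vehicle lung, which bounds its Cy5 difference at 13.1-fold or more.

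Of 13 hair and nail keratins, 5 were called higher in forestomach than in lung (Krt31, Krt32, Krt42, Krt82 and Krt84) and 5 than in liver (Krt32, Krt42, Krt81, Krt82 and Krt84). Krt32, a hair cuticle keratin, was 4.64, 5.33, 4.48, 5.12 and 4.55 in vehicle forestomach and -0.12 to -0.04 in vehicle lung, and was at least 19.1-fold higher in forestomach on the Cy5 channel. Krt84 was 2.85 ± 0.64 (SD, n = 5) in forestomach and above background on no vehicle lung, a difference of at least 5.10-fold on the Cy5 channel, while the bound for Krt82 was at the 1.5-fold threshold. Among 9 keratins of the inner root sheath and companion layer Krt72 alone was called, at 2.97 ± 0.50 in forestomach. Krt12, known from the corneal epithelium, and Krt90 were also called higher in forestomach than in lung, where neither brightest probe was above background on a vehicle array. On the Cy5 channel Krt90 was at least 4.35-fold higher. For Krt12 the bound was 1.25-fold, short of the 1.5-fold threshold, and its second probe was above background on no forestomach array.

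The Cy3 channel, which holds the same reference RNA on every array, was not equal between tissues for some of these keratins. The mean log2 Cy3 signal of Krt5 was 6.09 in lung and 11.84 in forestomach, that of Krt78 6.04 and 10.03, and that of Krt1 6.20 and 9.42. Of the 22 keratins called higher in forestomach than in lung, 7 (31.8%) had a Cy3 signal more than 1 higher in forestomach, against 208 of all 55681 probes (0.374%). The log2 ratios of these keratins are therefore smaller than their Cy5 differences, and why their reference signal differed was not tested. The "at least" folds given for Krt1, Krt5 and Krt78 are Cy5 differences that take no account of the Cy3 signal.

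Lung stood out for Krt7, a simple keratin of alveolar and airway epithelium. It was 4.07, 4.05, 3.89, 3.58 and 4.07 in vehicle lung, 0.69 ± 0.73 (SD, n = 5) in forestomach and -0.49 ± 0.28 in liver. All 5 lung values lay above every value of the other tissues, with a difference of 4.42 ± 0.27 (SE) from lung to liver and, in forestomach minus lung, of -3.25 ± 0.27 (limma FDR-adjusted p = 8.59e-08). Lung also exceeded liver in Krt19, a keratin of ducts and airways (2.13 against -2.86), in Krt23 (4.09 against 0.68), in Krt79, known from sebaceous ducts and the hair canal (3.29 against -0.12), in Krt42 (1.27 against -1.23), Krt81 (1.22 against -0.14) and Krt222 (1.25 against 0.30). For Krt10 the call rested on the second probe, which was 0.60 higher in lung, while the brightest probe was 0.25 lower in lung (-0.25). The 3 keratins called lower in lung than in liver were Krt13 (-0.91), Krt31 (-0.85) and Krt15 (-0.59), the last 1.51-fold, just past the threshold, and not called without mouse 4 (-0.57) or mouse 5 (-0.46).

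Krt8 and Krt18, the pair of hepatocytes, were the keratins above background on every liver array. Krt8 was 0.33, 0.40, 0.16, 0.01 and 0.13 in the vehicle livers and Krt18 was 0.15, 0.33, 0.01, 0.14 and 0.15, so both were near the reference on every array. Krt18 was called lower in forestomach than in liver (-2.14 ± 0.77 SE, limma FDR-adjusted p = 0.0437), with 4 of 5 forestomach values below all liver values. That call was lost without any one of mice 2, 3, 4 and 5 (FDR-adjusted p from 0.0509 to 0.216), and Krt8 was not called. Krt20, a keratin of gastric surface and intestinal cells, was called higher in forestomach than in lung (limma FDR-adjusted p = 0.00849), where it was above background on no vehicle array, so that only a bound of at least 8.37-fold on the Cy5 channel holds. Without mouse 4 it was not called (FDR-adjusted p = 0.0504 in limma). The vehicle forestomachs differed in glandular stomach genes, with means of 5.98, 0.77, 3.97, 5.35 and 2.27 in mice 1 to 5. Their means of Krt18, Krt19 and Krt20 therefore average arrays with much and with little glandular signal.

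The dose comparisons asked which keratins changed with BbF in each tissue. Across 9 comparisons of a dose with vehicle a single keratin was called, Krt80 in high-dose lung, which is 1 of 49 (2.04%) where 1.93% of all genes were called. In lung no keratin was called at the low dose (0.449% of all genes were) or at the medium dose (0.638%), with 1 and 2 keratins at an unadjusted p under 0.05, where 10% and 16.1% of all genes were. In high-dose lung 7 keratins (14.3%) had an unadjusted p under 0.05, beside 21% of all genes. In liver none was called at the low, medium or high dose, where the share of all genes called was 0%, 0% and 0.00538%, and 3, 3 and 1 keratins had an unadjusted p under 0.05 (3.3%, 4.55% and 8.09% of all genes). In forestomach none was called either, against 0%, 0% and 0.102% of all genes, with 1, 1 and 10 keratins at an unadjusted p under 0.05. The 10 are 20.4% of the 49, beside 4.67%, 5.83% and 9% of all genes at the low, medium and high dose. The trend over dose called Krt80 in lung (1.64% of all genes) and no keratin in liver (0.0135%) or forestomach (0.0888%), where 3 and 9 keratins had an unadjusted p under 0.05 (9.04% and 8.91% of all genes). For the lung trend this number was 5 keratins (10.2%), beside 20.2% of all genes. The median change of the 49 keratins at the high dose was -0.02 in lung, -0.02 in liver and 0.05 in forestomach, beside -0.00, 0.01 and -0.00 over all probes.

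Krt80, a type II keratin associated with differentiating epithelial cells, rose in lung. Its log2 ratio was 0.80, 1.04, 0.92, 0.77 and 1.18 in vehicle mice 1 to 5, and 1.06, 1.11, 1.25 and 1.20 in low-dose mice 6, 8, 9 and 10. In medium-dose mice 11 to 15 it was 1.60, 1.45, 0.94, 1.02 and 1.63, and in high-dose mice 16 to 20 it was 1.49, 1.89, 1.41, 1.91 and 1.82. Every high-dose lung lay above every vehicle and low-dose lung (7.27% of all genes had high-dose and vehicle lungs that did not overlap), while medium-dose mice were spread over both ranges, with 3 of 5 above all vehicle mice. The high dose exceeded vehicle by 0.76 ± 0.13 (SE), or 1.70-fold (limma FDR-adjusted p = 0.00121), and the trend from 0 to 100 mg/kg-bw/day amounted to 0.76 ± 0.12 (limma FDR-adjusted p = 0.000536). The medium dose (0.39 ± 0.13, FDR-adjusted p = 0.155) and the low dose (0.22 ± 0.14, FDR-adjusted p = 0.729) did not pass in limma's test. Blocking on the slide gave a high-dose difference of 0.70 ± 0.12 (FDR-adjusted p = 0.000877), and within the 3 lung slides it was 0.69, 0.57 and 0.77. The call held when any one of the 10 vehicle and high-dose mice was left out.

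**Figure D2:**
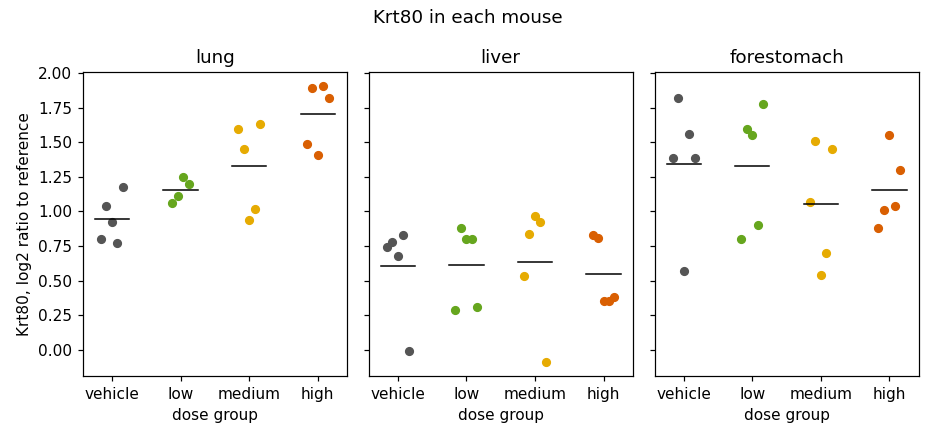
Log2 ratio of Krt80 to the reference (vertical axis) by dose group (vehicle, low, medium and high), in 1 panel per tissue. Each point is a mouse, and the line marks the group mean. In lung the 5 high-dose mice (1.41 to 1.91) sit above the 5 vehicle mice (0.77 to 1.18), and in liver and forestomach the groups overlap.

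In the other tissues, over all arrays, the high-dose difference of Krt80 was smaller than its standard error: -0.06 ± 0.20 (SE, limma FDR-adjusted p = 0.926) in liver and -0.19 ± 0.24 (limma FDR-adjusted p = 0.888) in forestomach. The liver value followed the low slide, which held 1 vehicle and 3 high-dose arrays: it was 0.06 ± 0.09 without that slide and 0.19 ± 0.10 with the slide as a block (limma FDR-adjusted p = 0.870 and 0.487), so its direction turned. Forestomach values ran from 0.54 to 1.82 over all 20 mice, with vehicle mouse 3 at 0.57 and mouse 2 at 1.82. Whether the high-dose effect differed between forestomach and lung was tested directly. No keratin was called (1.21% of all genes were), 12 (24.5%, beside 12.7% of all genes) had an unadjusted p under 0.05, and Krt80 gave -0.95 ± 0.25 (limma FDR-adjusted p = 0.0708). Without mouse 3 it was -1.14 (FDR-adjusted p = 0.00936) and without mouse 18 it was -1.12 (FDR-adjusted p = 0.0358), so the call depended on which mice entered.

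Other keratins of lung moved little. The simple keratins Krt8 and Krt18 were lower at the high dose by less than 1.25-fold (-0.28 ± 0.12 and -0.24 ± 0.11, limma FDR-adjusted p = 0.180 and 0.240), and Krt7 (0.10 ± 0.13) and Krt19 (-0.16 ± 0.14) differed by about their standard errors. Krt222 gave -0.32 ± 0.13 (FDR-adjusted p = 0.171) in the same limma fit. The basal Krt15 was 0.60 ± 0.48 higher at the high dose (limma FDR-adjusted p = 0.579), since mice 17, 19 and 20 stood at 0.07, 0.33 and 0.40 while mice 16 and 18 stood at -0.89 and -0.75. The wound keratins Krt16 and Krt17 differed by -0.04 ± 0.08 and -0.02 ± 0.12, and Krt17 was near background in lung.

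One lung array carried a set of squamous keratins. On the array of low-dose mouse 6, Krt4 was 5.73 where the other 18 lungs lay between -0.16 and 0.36, with a median of 0.05. Krt13 was 4.17 (others -2.21 to -0.90) and Krt78 was 3.99 (others -0.40 to 0.28), beside forestomach values of 5.41 to 7.34 for Krt4, 4.76 to 5.54 for Krt13 and 4.39 to 4.79 for Krt78. With median centring in place of loess these levels were lower, 4.86 for Krt4, 3.04 for Krt13 and 3.00 for Krt78, and so were those of forestomach (4.23 to 5.73, 3.15 to 4.07 and 2.66 to 3.37), while the other lungs stayed at 0.49 or less in all 3. The basal keratins were high too: Krt15 was 2.93 (others -1.13 to 0.40), Krt5 was 2.87 (others -0.42 to 1.30) and Krt14 was 2.49 (others -1.35 to -0.69), or 1.87, 1.79 and 1.54 with median centring. The hair cuticle keratin Krt32 stood at 2.86, with no other lung above 0.07. Second probes gave 3.43 for Krt13, 3.61 for Krt78 and 0.96 for Krt5, each above all other lungs.

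Not every squamous keratin was raised on that array. Krt1 (-0.18), Krt16 (-0.35) and Krt17 (0.20) lay within the range of the other lungs, Krt10 was 0.49 against at most 0.31 elsewhere, and Krt76 was 0.26 and not above background. The simple keratins of lung stayed in range at 4.03 for Krt7, -0.72 for Krt8, -0.70 for Krt18 and 1.91 for Krt19. In all, 11 of 49 keratins were highest on this array, 7 of them by more than 1 and 6 by more than 2. The 11 include Krt75, Krt76 and Krt84, which were above background on no lung array. The share of all genes highest on this array is not given. Other genes stood out with them: 22 of 28 squamous genes other than keratins lay above all other lungs, led by Lor (6.35), a cornified envelope protein, Calm4 (6.14) and Dmkn (5.53). Their mean was 2.38 against 0.18 to 0.50 on the other lung arrays, and 25 of 28 were above background there against 16 to 23. All 10 striated muscle genes were above every other lung as well, with Tnni2 at 5.26, Ckm at 4.51 and Myh1 at 4.51 and a mean of 2.92 against -0.89 to 0.82. None of 4 thyroid genes, 1 of 10 glandular stomach genes, none of 5 alveolar type II genes and none of 4 airway genes lay above the other lungs. The part of squamous or muscle tissue in these values was not tested.

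**Figure D3:**
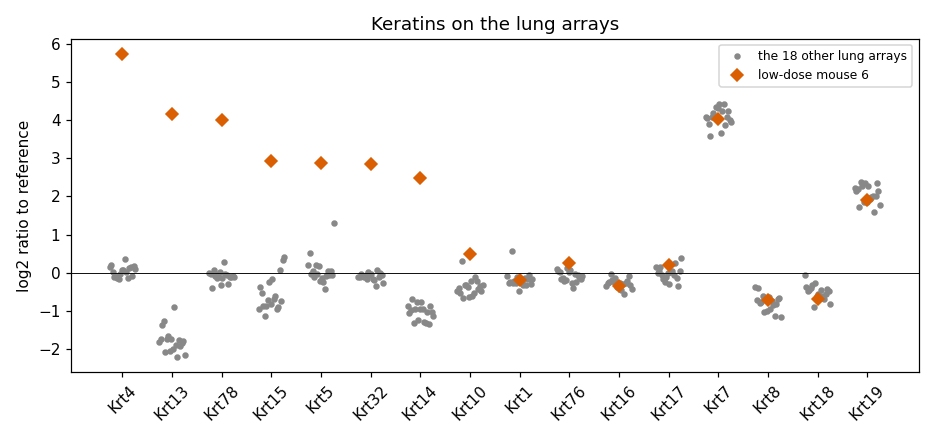
Log2 ratios of 16 keratins on the 19 lung arrays, with the keratins along one axis and the log2 ratio on the other. The diamond is low-dose mouse 6 and the grey points are the other 18 mice. Krt4 (5.73), Krt13 (4.17), Krt78 (3.99), Krt15, Krt5, Krt32 and Krt14 of mouse 6 stand clear of the grey points, and Krt7, Krt8, Krt18 and Krt19 do not.

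With this mouse included, the low-dose group mean of Krt4 exceeded vehicle by 1.31 ± 0.76 (SE, limma FDR-adjusted p = 0.668), and without it the difference was -0.15 ± 0.10. The same held for Krt13 (1.33 with and -0.17 without mouse 6), Krt78 (1.05 and 0.04), Krt15 (1.05 and 0.16), Krt14 (0.86 and -0.01), Krt32 (0.76 and 0.03) and Krt5 (0.68 and -0.01). None was called with or without that array. Smaller departures were seen on other lungs: high-dose mouse 20 had Krt5 at 1.30, medium-dose mouse 13 had Krt13 at -0.90 and Krt20 at -2.22, and vehicle mouse 4 had Krt1 at 0.58 and Krt10 at 0.31, above the other 17 lungs apart from mouse 6. Mouse 4 also had the highest lung value of the glandular stomach genes, a mean of 1.39.

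In forestomach the basal keratins, Krt13 and Krt78 varied little from mouse to mouse, and Krt4, Krt76 and the cornifying Krt2 varied more. Over all 20 arrays Krt5 was 3.40 to 3.93, Krt14 3.44 to 3.92, Krt15 2.89 to 3.63, Krt13 4.76 to 5.54, Krt78 4.39 to 4.79, Krt4 5.41 to 7.34, Krt76 1.14 to 4.06 and Krt2 0.45 to 2.11. None of them was called at any dose. At the high dose Krt5 gave -0.07 ± 0.08 (SE), Krt14 -0.13 ± 0.07, Krt15 0.13 ± 0.11, Krt13 -0.08 ± 0.14 and Krt4 -0.32 ± 0.27, with limma FDR-adjusted p of 0.608 or more. Krt78 was 4.41 to 4.52 in the 5 high-dose mice, below all 5 vehicle mice (4.53 to 4.69), a difference of -0.15 ± 0.07 that did not pass (limma FDR-adjusted p = 0.522), and its second probe gave -0.13. Over the alternatives the Krt78 difference ran from -0.178 to 0.17. The wound keratins were also not called. Krt17 was low on the arrays of mice 5 (2.10), 8 (2.30), 12 (2.15), 15 (1.97) and 20 (2.16) and 3.34 to 4.27 on the rest, and Krt16 was low on those of mice 5 (0.89) and 8 (1.25). These arrays came from all 4 dose groups. All 5 were among the 8 arrays with the least glandular stomach signal, and mice 5 and 12 were those with striated muscle signal. The part of either in the wound keratin values was not tested.

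The simple keratins of forestomach fell into separate ranges that did not follow dose. Krt8 was -3.75, -3.41 and -3.00 on the arrays of mice 2, 8 and 5 but 1.88, 2.28 and 2.99 on those of mice 1, 6 and 9. The arrays of mice 2, 3, 5, 7, 8, 12, 15 and 20 were the 8 lowest for each of Krt8 (-3.75 to -2.36, others 0.13 to 2.99), Krt18 (-4.64 to -3.21, others -0.78 to 1.94), Krt19 (-2.75 to -0.05, others 2.53 to 5.13) and Krt20 (-2.78 to -0.70, others 2.43 to 4.57). The same 8 arrays were the lowest in the mean of 10 glandular stomach genes, at 0.23 to 3.97 against 5.19 to 6.51 on the other 12. Of these 8 mice 3 received vehicle, 2 the low, 2 the medium and 1 the high dose. The fifth simple keratin, Krt7, did not divide the arrays in that way (-0.49 to 1.86).

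**Figure D4:**
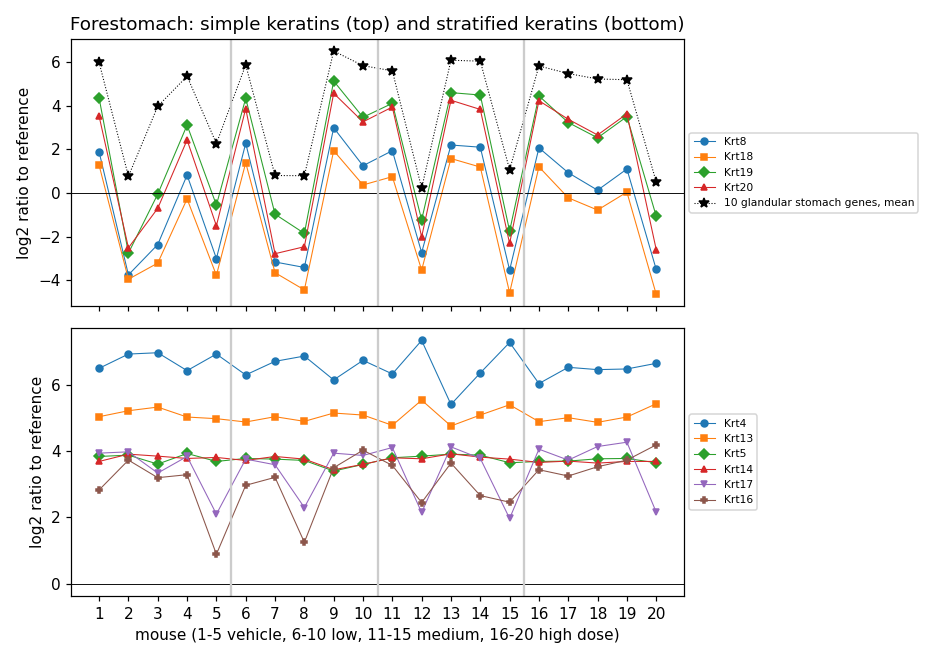
Log2 ratios on the 20 forestomach arrays, ordered by mouse and dose. The upper panel shows the simple keratins Krt8, Krt18, Krt19 and Krt20 with the mean of 10 glandular stomach genes, and the lower panel shows Krt4, Krt13, Krt5, Krt14, Krt17 and Krt16. The upper lines drop together on the arrays of mice 2, 3, 5, 7, 8, 12, 15 and 20, while Krt5, Krt14 and Krt13 stay level.

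With 4 of 5 high-dose but 2 of 5 vehicle arrays in the upper range, the high-dose means of the simple keratins exceeded vehicle by large but uncertain amounts: 1.43 ± 1.53 (SE) for Krt8, 1.71 ± 1.66 for Krt19 and 2.01 ± 1.79 for Krt20, with limma FDR-adjusted p of 0.859, 0.836 and 0.816. In a fit with the glandular mean as a covariate, added after the values were seen, the differences were 0.65 ± 0.37 for Krt8, 0.86 ± 0.37 for Krt19 and 1.09 ± 0.31 for Krt20 (limma FDR-adjusted p = 0.580, 0.422 and 0.167), with smaller standard errors.

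Lower values at the high dose in forestomach were found for Krt79 and Krt23. Krt79 was 2.67, 2.87, 2.55, 2.54 and 2.49 in vehicle and 2.32, 2.19, 2.01, 2.20 and 1.32 in high-dose mice. All 5 high-dose values lay below all vehicle values, yet the difference of -0.62 ± 0.16 (SE) had a limma FDR-adjusted p of 0.198, and the trend of -0.65 ± 0.15 one of 0.115. With the glandular covariate, added after the values were seen, the trend was -0.69 ± 0.13 and passed (limma FDR-adjusted p = 0.0222). The share of all genes called in that fit is not given. Within the 3 slides the high-dose difference was -0.41, -0.52 and -1.23. Krt23 was 5.81, 6.00, 5.93, 5.66 and 5.87 in vehicle and 5.52, 5.58, 5.42, 5.52 and 5.55 in high-dose mice, again without overlap. In all 6 keratins had high-dose and vehicle values that did not overlap in forestomach (Krt12, Krt23, Krt31, Krt78, Krt79 and Krt87, the last above background on no forestomach array), as did 2.45% of all genes. The Krt23 difference of -0.34 ± 0.07 had a limma FDR-adjusted p of 0.0499 but was 1.26-fold and so not called. Over the alternatives it ran from -0.386 to 0.003, with limma FDR-adjusted p of up to 0.991. Among the hair keratins, Krt84 (0.93 ± 0.30, limma FDR-adjusted p = 0.304) and Krt82 (0.82 ± 0.27, FDR-adjusted p = 0.322) had higher high-dose means without passing, and Krt12 was 0.45 ± 0.18 higher with an FDR-adjusted p of 0.437.

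In liver the values of several keratins followed the slide. On the slide with the fewest probes above background Krt19 was -1.27 to -0.65 and above background on 0 of 8 arrays, and on the other slides it was -3.68 to -3.15 and above background on 12 of 12. Krt20 was -0.46 to -0.03 on that slide and -2.89 to -2.24 elsewhere, and Krt42 was -0.50 to 0.09 against -2.15 to -1.28. For Krt8 and Krt18 the ranges overlapped (-0.34 to 0.14 against -0.21 to 0.77 for Krt8), and all 20 arrays were above background. Mouse 5 of the vehicle group was on that slide, with mice 6 and 10 (low), 11 and 15 (medium) and 18, 19 and 20 (high). The high-dose difference was 0.82 in Krt19 and 0.70 in Krt20 over all arrays (limma FDR-adjusted p = 0.736 and 0.750), and -0.27 and -0.24 without that slide (FDR-adjusted p = 0.328 and 0.468).

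Krt23, a type I keratin known from the bile duct reaction of injured liver, was the liver keratin whose result turned on that slide. It was 1.15, 0.95, 0.79 and 0.67 in vehicle mice 1 to 4, 1.17, 1.75 and 1.36 in low-dose mice 7, 8 and 9, 1.30, 2.21 and 1.78 in medium-dose mice 12, 13 and 14, and 1.64 and 4.23 in high-dose mice 16 and 17. On the low slide all 8 values lay between -0.16 and 0.23, and none was above background. Over all 20 arrays the high dose gave 0.59 ± 0.68 (SE, limma FDR-adjusted p = 0.763). Blocking on the slide gave 1.31 ± 0.34 (FDR-adjusted p = 0.0722), and within the slide that held 2 vehicle and 2 high-dose arrays above background the difference was 1.88.

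Without that slide, which leaves 4, 3, 3 and 2 arrays per group, Krt23 was called at the high dose (2.05 ± 0.45 SE, 4.13-fold, limma FDR-adjusted p = 0.0379) and in the trend (2.00 ± 0.41, FDR-adjusted p = 0.0202), where 1.04% and 1.25% of all genes were called. Krt31 was called in both as well (0.92 and 0.83, FDR-adjusted p = 0.0306 and 0.0402). These calls rested on mouse 17. When it was left out too, 1 high-dose array remained, assumed to vary like the other groups. Krt23 then gave 0.75 ± 0.27 at the high dose and 0.88 ± 0.18 at the medium dose, and Krt31 gave 0.45 at the high dose. On the 12 arrays of the other slides the 8 exposed livers lay above the 4 vehicle livers in Krt23, at the nearest by a very small margin. The share of all genes that separated in this way is not given.

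**Figure D5:**
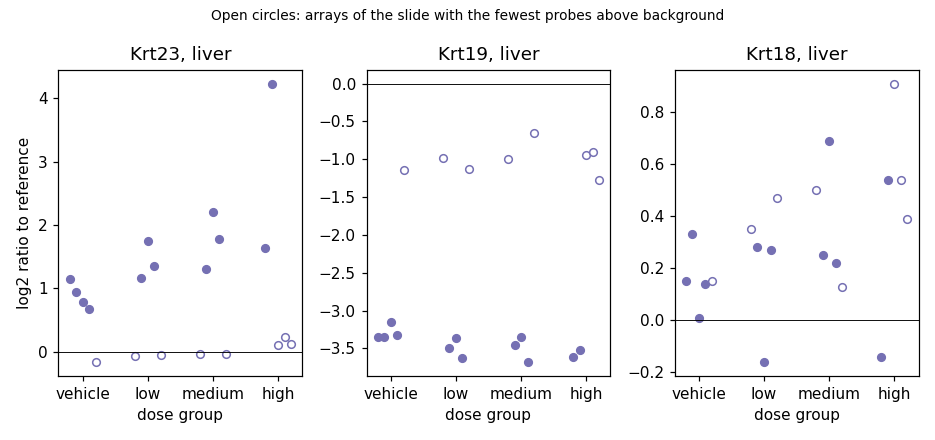
Log2 ratios of Krt23, Krt19 and Krt18 in the 20 livers (vertical axis) by dose group (vehicle, low, medium and high). Open circles are arrays of the slide with the fewest probes above background and filled circles are the other arrays. Filled circles of Krt23 go from 0.67 to 1.15 in vehicle up to 4.23 in high-dose mouse 17, open circles of Krt23 stay near 0, and Krt18 shows no such split.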

How the data were processed

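Cy5-labelled tissue RNA and a Cy3-labelled universal mouse reference RNA were hybridized by the authors to Agilent SurePrint G3 Mouse 8x60K arrays without dye swaps. The scanner files deposited by the authors hold the intensity of each spot in both dyes (Feature Extraction 10.7.3.1, per the file headers). The authors also deposited a table of LOWESS-normalized log2 ratios, which served as an alternative (r of 0.967 to 0.999 with the values used here). Their differential expression method (MAANOVA) was replaced by limma.

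The loess step of limma 3.58.1, run in R 4.3.3, was applied to median intensities without background correction. Spots that were controls or non-uniform were dropped, and repeated spots were averaged to 55681 probes, with 484 missing values. Accessions without version were matched to RefSeq symbols (assembly GRCm38.p6): 26413 probes matched and 29268 did not. The array files state another assembly, so coordinates are RefSeq's and only for promoters. Doses and the dose trend were fitted within a tissue (all dose groups, dose the only term). Vehicle tissues were compared in 1 fit of the vehicle arrays, and the difference in high-dose effect in a fit over lung and forestomach. A mouse number is the same animal in each tissue, which pairs the samples across tissues. Deviations of the same mouse correlated weakly between tissues (median r -0.031, 0.034 and 0.031). The number of arrays limits the precision. "At least" folds come from Cy5 signals after loess and Aquantile normalization, against the higher of the dim probe and the lowest signal well above background.

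The keratins, their role lists and the marker lists were chosen with earlier results of these data known. Values are given in full for keratins called at any dose, simple, basal, mucosal and wound keratins, the 3 largest high-dose changes per tissue, and any keratin whose highest lung array lay more than 2 above the lung median, which makes 18 keratins. Other keratins are named where a count refers to them, after their values were seen. The role lists, the marker lists of squamous epithelium, striated muscle, glandular stomach, thyroid, alveolar, airway and hepatocyte genes are described by counts and means. The scripts were tested on simulated data. Alternatives were other normalizations, background correction, filters on dim probes, slide and mouse as blocks, and leaving out arrays.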

Additional observations from a re-analysis of the deposited data

Results flagged for a closer look

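In groups of 4 or 5 mice, 23 of 216 combinations of a named keratin and a group (10.6%) had 1 mouse far from the rest by Dixon's criterion. This share cannot be set against a chance rate. Some keratins were named because of a high lung array, and several flags fall on the same array. In low-dose lung, mouse 6 was far above the other 3 in Krt4 (5.73), Krt13 (4.17), Krt78 (3.99), Krt15 (2.93), Krt5 (2.87), Krt32 (2.86) and Krt14 (2.49). Elsewhere in lung, high-dose mouse 20 was high in Krt5 (1.30, next 0.05), medium-dose mouse 13 was low in Krt7 (3.65) and high in Krt20 (-2.22), vehicle mouse 1 was high in Krt18 (-0.07), and high-dose mouse 16 was low in Krt78 (-0.29, not above background).

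In vehicle liver, mouse 5, the only vehicle array on the slide with few probes above background, stood apart in Krt80 (-0.01, next 0.68), Krt19 (-1.14, next -3.15), Krt20 (-0.19, next -2.24) and Krt13 (-0.10), none above background there. In high-dose liver Krt17 of mouse 19 was low (-0.27, not above background).

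In forestomach, high-dose mouse 20 was low in Krt20 (-2.59, next 2.66) and Krt17 (2.16, next 3.73) and high in Krt13 (5.43), low-dose mouse 8 was low in Krt17 (2.30) and Krt23 (5.49), and vehicle mouse 3 was low in Krt76 (1.55). No cause of these departures was tested.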

How the results depend on the processing

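Leaving out one mouse at a time, the number of keratins called stayed at 1 to 1 in high-dose lung and in the lung trend and at 0 to 0 in the other dose comparisons and trends. It ran from 24 to 26 for forestomach minus liver, 23 to 25 for forestomach minus lung, 9 to 11 for lung minus liver, and 0 to 1 for the difference in high-dose effect, where Krt80 (without mouse 3 or 18) or Krt90 (without mouse 2: 1.20, limma FDR-adjusted p = 0.0231) was called. With mouse as a replicate block the counts were 26, 24, 11 and 0, so the pairing changed no count. Tested on probes well above background alone, the difference in high-dose effect called 1 keratin (Krt80, -0.95, limma FDR-adjusted p = 0.0465).

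Alternatives chosen after seeing the data were lung without mouse 6, detection in lung without mouse 13, the glandular covariate, and liver without the low slide and mouse 17. With the glandular covariate 1 keratin was called in the forestomach trend (Krt79, lower) and 1 in the difference in high-dose effect (Krt12, 0.59, limma FDR-adjusted p = 0.0192). The shares of all genes called in these 2 fits are not given, so neither call can be set against them. Liver without the low slide, planned, gave 2 keratins at the high dose and 2 in the trend. Leaving out mouse 17 as well left 1 high-dose array, so only differences are given for that fit (above). Apart from that fit, the other counts moved by less than 1.5 times. No call of a named keratin changed direction, but of the 53 high-dose differences of named keratins that were not called, 37 changed sign under at least 1 alternative. Among those that did were liver Krt19, Krt20 and Krt80 at the high dose without the low slide (values above). Forestomach Krt23 and Krt78 at the high dose also changed sign (ranges above). In low-dose lung Krt4, Krt13, Krt14 and Krt5 did so without mouse 6. Over all 49 keratins, median centring lost 3 of 26 calls for forestomach minus liver (Krt12, Krt18 and Krt80), 2 of 24 for forestomach minus lung (Krt31 and Krt79) and 3 of 11 for lung minus liver (Krt10, Krt31 and Krt222), and normexp lost 2 of the last 11 (Krt10 and Krt15). Among the 18 named keratins, the slide as a random block lost 1 call (Krt18) and leaving out 1 mouse lost a call in 10 fits, with 719 on the same side of the thresholds. The 10 include, beside those of Krt15, Krt18 and Krt20 given above, Krt19 in forestomach minus liver without mouse 1 (2.68, FDR-adjusted p = 0.0509) or mouse 4 (3.00, FDR-adjusted p = 0.0732) and Krt80 in the same limma comparison without mouse 5 (0.58). On the low liver slide, 44 of 49 keratins were above background on none of the 8 arrays, so their values there are at background.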
